A study of Homo sapiens with 51 samples.

Results

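Under BMP4, 1175 of the 142087 accessible regions counted in that treatment opened early in wild-type cells and were still open at the end of the time course. They were chosen on WT libraries alone. A region was kept when its mean on day 2 was at least 3 CPM (the count multiplied by 1000000 and divided by the library's total), at least 2 times the mean on day 1, and when its mean on day 5 was at least 0.8 times that on day 2. WT values on days 1, 2 and 5 therefore chose the regions and are given here as a description without a test. They make up 0.827% of the table, and 457 of them met all 3 conditions in replicate a and in replicate b taken separately.

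All libraries came from H1, a long-established line of human embryonic stem cells, either WT or 1 of 2 mutant lines named KO and ΔATG (written DATG below). ATAC-seq, which uses a transposase to cut and tag open DNA, was run on days 1 to 5 of a treatment labelled BMP4 and mesoderm, with 2 libraries for each line and day (30 libraries). Undifferentiated cells of the 3 lines (day 0) and cells under a neural induction labelled SMADi were counted over region sets of their own. The study's title concerns an RNA that acts in more than a single way in human embryonic development, and the question followed here is how chromatin that WT cells open early behaves in the 2 mutant lines. Neither the edited gene nor the number of clones behind each line is in the labels, and the edit could not be checked in these data. Whether replicates a and b were separate cultures is not stated either, so the p-values reflect spread between these samples alone, which can be technical. The BMP4 cells were seeded in maintenance medium on day 0, and the labels used here do not give the day on which BMP4 was added.

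BMP4 is a secreted growth factor that binds serine/threonine kinase receptors. The receptors phosphorylate SMAD1, SMAD5 and SMAD9, which enter the nucleus with SMAD4 and act on enhancers and promoters of target genes. In human pluripotent cells BMP4 induces WNT and NODAL ligands and primitive streak genes such as TBXT, and, depending on dose, time and the other signals present, mesoderm of the posterior streak, amnion-like or trophoblast-like cells. Enhancers that open in such a response commonly lie far from gene starts, whereas promoters rich in CG dinucleotides are commonly open in many cell types.

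Total counts were 4019778 to 13850448 per BMP4 library, and the median early-opening region held 26 counts in a WT day 2 library. Gene-linked sums over marker regions (nearest protein-coding gene end within 50 kb) were compared between WT days 5 and 1 as a check of the label. Both day 5 libraries lay above both day 1 libraries for 5 of 8 streak and mesoderm genes (APLNR, HAND1, GATA6, PDGFRA and MESP1) and below them for TBXT, MIXL1 and EOMES. Of 8 amnion and trophoblast genes, 4 were higher, 2 lower and 2 overlapped, and all 4 pluripotency, all 3 neuroectoderm and both endoderm genes were lower. These sums carry no test. WT days 1 and 5 also served the rule, and the sums of APLNR and HAND1 each include 3 members that it chose, so a higher day 5 sum was partly fixed for them. HAND1 stands in both the mesoderm and the amnion list.

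Where an early-opening region overlapped a promoter window, the sequence of that window shows the DNA at and beside the region. RefSeq promoter windows on GRCh38.p14 (250 bases before to 50 after a gene's start) overlapped 44 of the 1175 regions, at 49 windows of 48 genes. On days 3 and 4 the test described below called 17 of these 44 regions lower in KO than in WT, and 27 were not called. The share called lower was 70.2% of all 1175 early-opening regions and 8.23% of all regions tested. It was 23.1% of the 134 early-opening regions within 1 kb of a protein-coding gene end. The windows of VTCN1, GABRP and PSD4 belong to regions called lower, and those of EIF5, EP300 and WT1 to regions not called. VTCN1, GABRP and WT1 are in the gene lists used below, and PSD4, EIF5 and EP300 were picked after their values were seen, to show the contrast. Each line reads 5′ to 3′ on the gene's strand, and capitals mark the bases inside the early-opening region. The windows are VTCN1 (chr1:117210878-117211177, minus strand), GABRP (chr5:170783475-170783774, plus), PSD4 (chr2:113173721-113174020, plus), EIF5 (chr14:103334638-103334937, plus), EP300 (chr22:41092342-41092641, plus) and WT1 (chr11:32400351-32400650, minus).
VTCN1: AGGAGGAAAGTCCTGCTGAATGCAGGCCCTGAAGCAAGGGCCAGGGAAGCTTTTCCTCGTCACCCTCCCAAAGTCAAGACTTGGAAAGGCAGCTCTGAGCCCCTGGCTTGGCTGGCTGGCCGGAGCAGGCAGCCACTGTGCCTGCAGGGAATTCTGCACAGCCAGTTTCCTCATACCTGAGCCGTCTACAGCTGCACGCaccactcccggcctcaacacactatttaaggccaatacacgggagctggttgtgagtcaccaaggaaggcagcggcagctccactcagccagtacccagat
GABRP: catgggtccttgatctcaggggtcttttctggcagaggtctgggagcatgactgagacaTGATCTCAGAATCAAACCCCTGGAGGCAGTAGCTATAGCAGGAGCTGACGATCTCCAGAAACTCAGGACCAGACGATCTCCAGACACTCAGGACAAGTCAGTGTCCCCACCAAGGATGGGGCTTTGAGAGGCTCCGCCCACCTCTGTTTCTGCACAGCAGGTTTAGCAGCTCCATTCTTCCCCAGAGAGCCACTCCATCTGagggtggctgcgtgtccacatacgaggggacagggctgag
PSD4: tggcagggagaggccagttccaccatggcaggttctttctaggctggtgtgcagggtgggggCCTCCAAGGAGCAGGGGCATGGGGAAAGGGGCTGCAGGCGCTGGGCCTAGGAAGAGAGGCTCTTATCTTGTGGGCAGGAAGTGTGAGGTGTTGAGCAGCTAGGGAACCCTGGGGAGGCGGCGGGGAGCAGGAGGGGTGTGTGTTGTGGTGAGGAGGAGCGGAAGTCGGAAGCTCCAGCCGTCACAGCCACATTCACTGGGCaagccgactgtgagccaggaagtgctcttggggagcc
EIF5: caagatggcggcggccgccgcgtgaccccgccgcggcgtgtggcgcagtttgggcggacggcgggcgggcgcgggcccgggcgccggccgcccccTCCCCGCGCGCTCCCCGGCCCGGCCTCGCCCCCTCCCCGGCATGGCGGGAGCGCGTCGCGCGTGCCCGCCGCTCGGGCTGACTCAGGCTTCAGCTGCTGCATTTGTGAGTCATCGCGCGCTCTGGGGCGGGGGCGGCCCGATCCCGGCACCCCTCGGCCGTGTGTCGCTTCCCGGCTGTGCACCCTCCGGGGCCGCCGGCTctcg
EP300: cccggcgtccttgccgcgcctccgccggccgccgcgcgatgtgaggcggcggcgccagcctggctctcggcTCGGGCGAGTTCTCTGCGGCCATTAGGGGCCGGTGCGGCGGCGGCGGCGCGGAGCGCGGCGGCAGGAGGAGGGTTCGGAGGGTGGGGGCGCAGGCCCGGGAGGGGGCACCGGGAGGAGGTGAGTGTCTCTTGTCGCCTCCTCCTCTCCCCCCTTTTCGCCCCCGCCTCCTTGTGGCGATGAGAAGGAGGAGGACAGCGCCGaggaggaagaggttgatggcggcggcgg
WT1: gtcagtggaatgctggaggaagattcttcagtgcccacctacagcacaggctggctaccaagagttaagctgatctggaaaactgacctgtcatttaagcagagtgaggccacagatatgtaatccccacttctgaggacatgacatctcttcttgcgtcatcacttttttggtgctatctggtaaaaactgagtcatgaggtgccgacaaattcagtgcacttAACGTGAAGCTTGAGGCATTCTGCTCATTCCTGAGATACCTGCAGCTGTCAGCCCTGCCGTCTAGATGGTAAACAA

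The VTCN1, GABRP and PSD4 windows hold 7, 5 and 7 CG dinucleotides, and the EIF5 and EP300 windows hold 51 and 40. Over all 17 windows of regions lower in KO the median was 6 CG dinucleotides and 57.7% G and C, and over the 32 windows of regions not called it was 40 and 77.3%. The 17 windows belong to 17 regions, but the 32 belong to 27. Some of these 27 overlap the windows of 2 gene starts, so their DNA enters the medians and the motif counts below 2 times. All 34943 promoter windows had medians of 14 and 58.7%, and the 18741 that any BMP4 region overlapped had 26 and 66.0%. The WT1 window, with 4 CG dinucleotides and 47.3% G and C, was not called and so is an exception to that division. Letters of known motifs were searched on both strands. AGATAA, read by GATA factors, stood in 5 of the 17 windows and 1 of the 32, against 4.66% of the windows that any BMP4 region overlapped and 10.4% of all promoter windows, and the PSD4 window is among the 5. GGCGCC, a SMAD1/5 motif that itself holds a CG, stood in 0 of the 17 and 19 of the 32, against 31.5% of the overlapped windows and 19.2% of all. GCCNNNGGC, read by TFAP2 factors, stood in 1 of the 17 and 15 of the 32, against 33.6% and 23.2%. The other 4 motifs searched differed less between the 17 and the 32. TGANTCA (AP-1) and GGAATG (TEAD) each stood in 3 of the 17 and 3 of the 32, against 4.43% and 11.3% of the overlapped windows. AACNNGTT (GRHL) stood in 2 and 0, and ATTTGCAT (POU) in 0 and 0, against 2.31% and 1.34%. Over all 49 windows AGATAA and TGANTCA each stood in 6 (12.2%). These matches describe letters in the windows and do not show binding. Whole windows were read, although a region could share as few as 10 bases with its window (MAP4K4). The AGATAA match among the 32, at MAP4K4, and the TGANTCA matches at VTCN1 and WT1 lie outside the early-opening region.

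The region at the start of PSD4, which encodes an exchange factor for the small GTPase ARF6, held 9.75 and 7.17 CPM in WT on day 3 and 7.67 and 8.96 on day 4. KO held 2.53 and 1.53, then 3.91 and 4.07, and DATG held 3.59 and 3.25, then 4.89 and 6.18. All mutant values were below all WT values, and the log2 fold change was −1.57 ± 0.19 (SE, adjusted p = 9.24e-11) in KO and −0.98 ± 0.17 (adjusted p = 2.75e-05) in DATG. The region at the start of EIF5, a translation initiation factor gene, also covers the start of the divergent EIF5-DT. It held 9.53 and 11.5 CPM in WT, 8.66 and 9.00 in KO and 7.72 and 7.99 in DATG on day 3, and on day 4 both mutant lines were above WT. KO was not called there (0.04 ± 0.13, adjusted p = 0.899), nor at EP300, which encodes a histone acetyltransferase (−0.18 ± 0.13, adjusted p = 0.433).

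In WT cells the chosen regions went from well below the typical region of the table on day 1 to above it from day 3 on. The median over the 1175 regions was 1.78 and 1.67 CPM in the 2 libraries of day 1, 3.99 and 4.77 on day 2, 6.35 and 5.69 on day 3, 5.64 and 5.01 on day 4, and 6.26 and 6.99 on day 5. The median region of the whole table stayed between 4.39 and 5.16 CPM in the same 10 libraries. The median ratio of day 2 to day 1 was 2.46 and the largest was 41.4, and 886 regions were at or above their day 2 level on day 5. Day 3, which the rule did not use, was above day 2 in 952 regions. Between days 3 and 4, which the rule did not use either, edgeR's quasi-likelihood test with Benjamini-Hochberg adjustment over all regions called 33 regions lower (2.81%, against 0.695% of all regions tested) and 10 higher (0.851%, against 0.48%). A DESeq2 Wald test called 1 lower (against 0.0204% of all regions tested), and leaving out any single WT library of day 3 or 4 gave between 2 and 9 lower. On day 2 the regions nearest the first limit had 3.0008 CPM inside it and 2.9986 outside. The nearest ratios of day 2 to day 1 were 2.0003 and 1.99999, and those of day 5 to day 2 were 0.8005 and 0.7999.

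**Figure D1:**
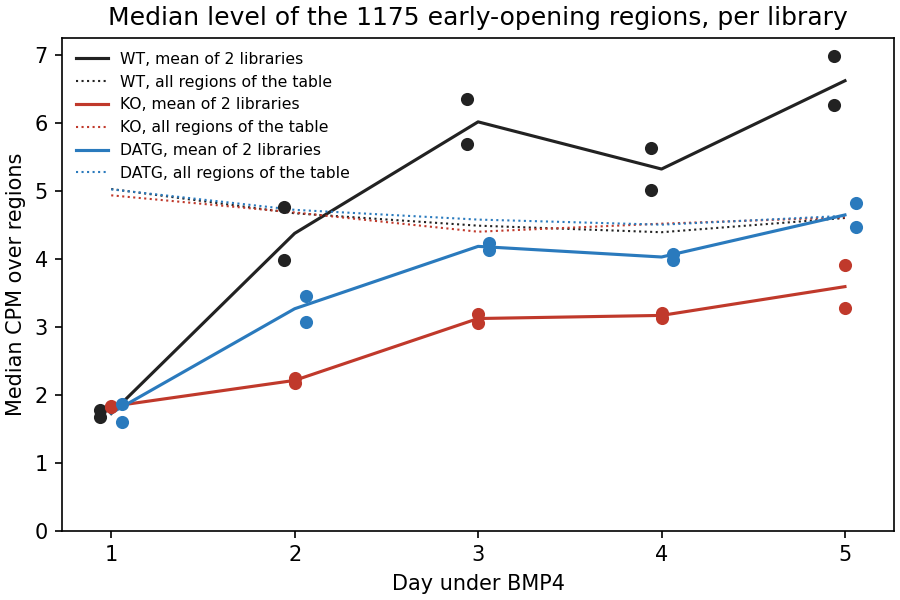
Median CPM over the 1175 early-opening regions (y axis) by day under BMP4 (x axis) in WT, KO and DATG. Points are libraries, solid lines join the mean of the 2 libraries, and dotted lines give the same median over all regions of the table. The 3 lines start between 1.61 and 1.86 CPM on day 1. On days 2 to 5 every KO library lies below every DATG library of the same day, and these lie below the WT libraries. WT days 2 and 5 helped choose the regions, so the place of WT above the mutant lines was favoured on those days and on the days between them.

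In the KO line these regions stayed at a lower level from day 2 on. Its median over the 1175 regions was 1.84 and 1.82 CPM in the 2 libraries of day 1, 2.17 and 2.26 on day 2, 3.20 and 3.06 on day 3, 3.20 and 3.14 on day 4, and 3.28 and 3.91 on day 5. All KO libraries of days 2 to 5 lay below all WT libraries of the same day. The KO median was 50.2% of the WT median on day 2 and 55.0% on day 5, days that chose the regions. It was 51.5% on day 3 and 59.7% on day 4, days that the rule did not use but that lie between days 2 and 5. On day 1, which also helped choose the regions, it was 107% of WT. In bulk libraries, fewer cells with an open region and less opening per cell cannot be told apart.

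The test of KO against WT used days 3 and 4, averaged. No library of these days chose the regions, but the rule asked for a high WT level on days 2 and 5. A WT level above the mutant lines was therefore favoured on days 3 and 4 too. The part of this choice in the counts for KO and DATG was not tested. KO was lower in 825 of the 1175 regions (70.2%) and higher in 4 (0.340%), where 8.23% and 3.95% of all 142083 regions tested were called lower and higher (edgeR's quasi-likelihood test, adjusted p under 0.05). Among the 107546 regions with at least 3 CPM in WT on day 2, 6.01% were lower and 3.82% higher. The median log2 fold change over the members was −0.94, with quartiles of −1.22 and −0.44, against 0.01 over all regions tested. In 717 members (61%) all 4 KO libraries of these days lay below all 4 WT libraries, as in 7.02% of all regions of the table, and in 8 members they lay above, against 5.06%. A DESeq2 Wald test called 675 members lower (57.4%, against 4.44% of all regions tested). Among the 818 regions that the same rule kept in KO, KO was higher than WT in 20.4% and lower in 7.21%.

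DATG lay between. Its median over the 1175 regions was 1.61 and 1.86 CPM on day 1, 3.46 and 3.08 on day 2, 4.13 and 4.24 on day 3, 4.07 and 3.99 on day 4, and 4.82 and 4.48 on day 5. Against the WT median this was 73.1% on day 2, 69.2% on day 3, 76.9% on day 4 and 69.0% on day 5. On days 3 and 4 DATG was lower than WT in 549 members (46.7%, against 3.87% of all regions tested) and higher in 3 (0.255%, against 1.79%). The median log2 fold change over the members was −0.56, against 0.00 over all regions tested. All 4 DATG libraries lay below all 4 WT libraries in 414 members (35.2%), as in 3.65% of all regions, and above them in 4 members, against 3.99%. The tests of KO and of DATG share the 4 WT libraries, so their counts are given side by side and not as separate evidence. The DATG count rests more on single libraries and on the tool. It was 286 members (24.3%) without WT day 3 replicate a, 321 without WT day 4 replicate a, 302 without DATG day 4 replicate b, and 166 (14.1%, against 0.557% of all regions) with DESeq2.

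**Figure D2:**
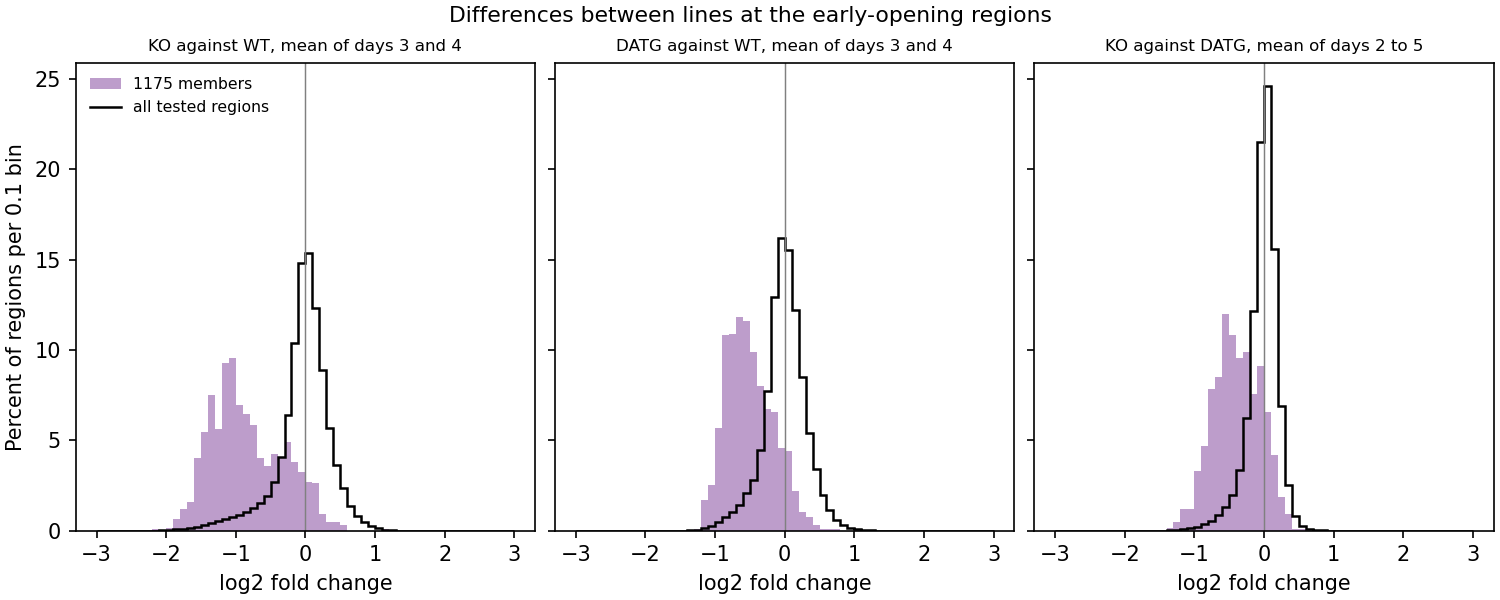
Share of regions (y axis, percent per bin of 0.1) by log2 fold change (x axis) for KO against WT and DATG against WT, each averaged over days 3 and 4, and KO against DATG averaged over days 2 to 5. Filled bars are the 1175 early-opening regions and outlines are all 142083 regions tested. The medians of the bars lie at −0.94, −0.56 and −0.40, and the outlines are centred near 0.

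The 2 mutant lines were then compared directly over days 2 to 5, a comparison that holds no WT library. KO was lower than DATG in 374 members (31.8%, against 2.02% of all regions tested) and higher in 2 (0.170%, against 0.594%), with a median log2 fold change of −0.40 over the members and 0.00 over all regions. The count was 238 without DATG day 2 replicate a and 161 with DESeq2 (13.7%, against 0.579% of all regions).

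The same order was seen in time within each mutant line. From day 1 to day 2, the interval that chose the regions in WT, 153 members rose in KO (13.0%, against 4.09% of all regions tested) with a median log2 fold change of 0.45. In DATG 480 members rose (40.9%, against 4.77%) with a median of 0.97. Of the 1175 members, 117 rose in both lines, 363 rose in DATG and were not called in KO, 36 rose in KO and were not called in DATG, and 659 were called in neither. The difference between the 2 lines in this change was itself tested, and no member passed. At an unadjusted p under 0.05, 192 members had the smaller change in KO and 8 had the larger. Of all 142083 regions tested, 3905 and 3219 did so at that cut. After adjustment 0.000704% of all regions were called, and DESeq2 also called 0 members. The median of that difference over the members was −0.47 on the log2 scale, and over all regions it was 0.00. The counts of day 2 against day 1 fell by over 1.5 times with each library left out. For KO they were 60 without day 1 replicate a, 84 without day 1 replicate b, 74 without day 2 replicate a and 85 without day 2 replicate b, and for DATG 245, 260, 240 and 308 in the same order. With DESeq2 they were 72 and 207, where it called 1.2% of all regions tested in KO and 1.01% in DATG.

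Many members went on to rise later in the mutant lines. Between days 2 and 5, 286 rose in KO (24.3%, against 4.57% of all regions tested) and 346 in DATG (29.4%, against 5.36%), while 3 fell in KO and 12 in DATG (0.255% and 1.02%, against 2.08% in each line). By day 5, 654 members were higher than on day 1 in KO (55.7%, against 11.2%) and 885 in DATG (75.3%, against 12.9%). In 601 members this held in both lines, in 284 it was called in DATG and not in KO, in 53 in KO and not in DATG, and 237 members were called in neither. The 520 members that rose by day 5 in KO but were not called by day 2 had a KO median of 1.46 CPM on day 1, 1.95 on day 2 and 4.23 on day 5, beside a WT median of 6.58 on day 3. The 237 regions called in neither line had medians of 2.83 CPM in KO and 2.88 in DATG on day 5. Single libraries weighed on these counts too. The count for day 5 against day 2 in KO was 149 without day 2 replicate a, 158 without day 2 replicate b and 167 without day 5 replicate b, and in DATG it was 142 without day 2 replicate b and 129 without day 5 replicate a. For day 5 against day 1 it was 428 in KO without day 1 replicate a and 552 in DATG without day 5 replicate a. DESeq2 gave 139 and 180 members for day 5 against day 2 in KO and DATG, against 1.57% and 2.1% of all regions tested.

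The same rule was applied to each mutant line in its own libraries, as a description. It kept 818 regions in KO, of which 78 were also WT members (6.64% of the WT set and 9.54% of the KO set). It kept 959 regions in DATG, of which 242 were WT members (20.6% and 25.2%), and 40 regions met it in all 3 lines. Regions that the rule chose in KO went the other way on days 3 and 4, with a median of 0.13. KO was higher than WT in 167 of 818 (20.4%, against 3.95% of all regions tested). It was lower in 59 (7.21%, against 8.23%). Regions chosen in DATG did not turn in this way, with a median of −0.21 in DATG against WT. DATG was lower than WT in 234 of the 959 (24.4%, against 3.87% of all regions tested). It was higher in 47 (4.90%, against 1.79%). KO was thus higher in 20.4% of the regions chosen in KO and lower in 70.2% of those chosen in WT. Each set was chosen through the line in which it is high, and the shares of all regions differ (3.95% higher, 8.23% lower). The difference between 20.4% and 70.2% was not tested. At the 959 regions chosen in DATG, KO was lower than WT in 385 (40.1%, against 8.23% of all regions tested) and higher in 71 (7.40%, against 3.95%).

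Early-opening regions were next placed beside genes by the nearest annotated end of a protein-coding gene within 50 kb. This linked 698 of them, and 0.640% of all regions so linked were members. A gene linked by distance is named only for orientation, and which gene a region acts on was not measured. The lists share some members, which are counted in each: GRHL2 and both KRT7 regions in amnion and epithelium, HEY1 in amnion and BMP-SMAD, WNT3 in streak and WNT, and OTX2 in pluripotency and neuroectoderm. In the gene lists, counts are of regions, and called means lower than WT on days 3 and 4. Beside the members of a list stand the shares of all 1175 members, 70.2% lower in KO and 46.7% in DATG. Beside all regions of a list stand 8.23% lower and 3.95% higher in KO over all regions tested. The lists hold few members, and no list was tested against these shares.

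Primitive streak and nascent mesoderm genes had 9 members among 371 linked regions (2.43%), at APLNR, SNAI1, TBXT, LHX1, MESP2 and WNT3. KO was lower in 8 of the 9 and DATG in 8 of the 9, with medians of −1.36 and −0.92, and over all 371 regions of the list 66 were lower in KO and 10 higher (median −0.10). APLNR, the receptor for apelin and ELABELA and a marker of nascent mesoderm, had 3 members among its 9 regions, all of them lower in both mutant lines. The strongest of them (chr11:57240858-57241058, 3708 bp outside the gene) held 20.7 and 16.5 CPM in WT on day 3 and 21.5 and 17.6 on day 4. In KO it held 5.99 and 6.28, then 7.12 and 7.44, and in DATG 7.54 and 7.49, then 10.3 and 9.70. No library of either mutant line reached the lowest WT library on these days. The log2 fold change was −1.54 ± 0.14 (SE, 4 libraries per line, adjusted p = 9.32e-16) in KO and −1.19 ± 0.13 (adjusted p = 4.74e-11) in DATG.

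At TBXT, which encodes the T-box factor brachyury of the primitive streak, the member (chr6:166195300-166195500) lies 26745 bp upstream of the gene. It held 6.35 and 8.07 CPM in WT on day 2, 11.0 and 8.53 on day 3 and 7.36 and 10.2 on day 4. KO held 1.34 and 1.91 on day 2, 4.39 and 2.04 on day 3 and 4.63 and 3.72 on day 4, and every one of these values is below the WT values of the same day. Day 2 in WT helped choose the region, so only days 3 and 4 were tested against WT. The change on these 2 days was −1.33 ± 0.18 in KO (adjusted p = 3.96e-09) and −0.96 ± 0.16 in DATG (adjusted p = 2.87e-05). LHX1, a LIM-homeobox factor of the streak and node, fell furthest of the list in KO, by 1.78 ± 0.21 on the log2 scale (adjusted p = 1.65e-10). SNAI1, a repressor that drives the epithelial to mesenchymal transition, had 2 members 24099 and 27288 bp outside the gene with WT means of 19.8 and 20.0 CPM on day 3 against 8.29 and 10.8 in KO and 9.92 and 12.3 in DATG. The exception was WNT3, a ligand that induces the streak: its member held 8.74 CPM in WT, 8.67 in KO and 8.66 in DATG on day 3, and was not called in KO (−0.07 ± 0.15, adjusted p = 0.844) or DATG (−0.13 ± 0.15, adjusted p = 0.712). The WNT3 region, which also lies in LRRC37A2 by the annotation, rose from day 1 to day 2 in DATG (1.06 ± 0.27, adjusted p = 0.00603) and in KO (0.87 ± 0.28, adjusted p = 0.0456).

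Lateral plate and cardiac mesoderm genes had 5 members among 503 regions, 3 of them 39126 to 45707 bp upstream of HAND1, a basic helix-loop-helix factor of the lateral plate, heart and extraembryonic mesoderm. KO and DATG were each lower in 4 of the 5, with medians of −1.10 and −0.80, and over the 503 regions 56 were lower in KO and 15 higher. The strongest HAND1 member (chr5:154517253-154517453) rose in WT from 2.81 and 2.57 CPM on day 1 to 13.7 and 13.9 on day 2. DATG held 13.4 and 6.01 on day 2, so that 1 library was near WT and 1 was not, and KO held 2.67 and 5.55. On days 3 and 4 the means over 4 libraries were 21.4 ± 4.03 CPM (SD) in WT, 7.72 ± 2.17 in KO and 11.9 ± 3.02 in DATG. The log2 fold change was −1.52 ± 0.16 in KO (adjusted p = 1.12e-09) and −0.88 ± 0.15 in DATG (adjusted p = 8.35e-05). FOXF1, a forkhead factor of the splanchnic mesoderm, fell less, by 0.61 ± 0.11 in KO (adjusted p = 2.66e-05) and by 0.50 ± 0.11 in DATG (adjusted p = 0.00142). The fifth member, at WT1, a zinc-finger factor of mesothelium and kidney, was not called in either line (adjusted p = 0.483 and 0.614).

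Among targets and feedback genes of BMP-SMAD signalling, 7 of 479 regions were members, at SMAD7 (3 regions), SMAD6, UNC5B, BMPER and HEY1. KO was lower in 6 and DATG in 4, with medians of −0.89 and −0.61. Over all 479 regions 44 were lower in KO and 10 higher, and the lower count is near the 8.23% of all regions tested. SMAD6 and SMAD7 encode inhibitory SMADs that the pathway itself induces. The SMAD6 member (chr15:66679777-66679977) had the highest WT level on days 3 and 4 of all named members: 30.1 and 28.2 CPM, then 25.8 and 23.2. KO held 20.4 and 19.0, then 12.6 and 12.6, and DATG 16.9 and 21.7, then 18.7 and 14.9. The fall was 0.78 ± 0.11 in KO (adjusted p = 8.81e-09) and 0.61 ± 0.10 in DATG (adjusted p = 2.06e-05), and within KO the region still rose from day 1 to day 2 (0.93 ± 0.20, adjusted p = 0.00125). Of the 3 SMAD7 members, the one 1012 bp inside the gene from its start was called in neither line (−0.13 ± 0.16, adjusted p = 0.71 in KO, and 0.02 ± 0.15, adjusted p = 0.974 in DATG). The one 2308 bp inside rose from day 1 to day 2 in KO (1.49 ± 0.21, adjusted p = 4.8e-07) and was lower than WT afterwards (−0.59 ± 0.11, adjusted p = 5.26e-05). The HEY1 region, near a Notch and BMP target gene, was lower in KO (−1.08 ± 0.26, adjusted p = 0.00162) and not called in DATG (−0.24 ± 0.23, adjusted p = 0.629), and the direct test of KO against DATG there did not pass (adjusted p = 0.189).

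Amnion and trophoblast genes had 9 members among 412 regions, and KO was lower in 7 and DATG in 4, with medians of −0.91 and −0.58. Over the 412 regions 43 were lower in KO and 10 higher, and the lower count is near the 8.23% of all regions tested. GABRP, a GABA receptor subunit found in amnion, and VTCN1, an immune checkpoint ligand of trophoblast and amnion, had members at the gene start whose sequences are printed above. The VTCN1 region held 6.93 and 4.89 CPM in WT on day 3 and 7.36 and 4.71 on day 4, and KO held 3.20 and 2.21, then 3.20 and 3.14. All KO values were below all WT values, and the change was −1.04 ± 0.20 (adjusted p = 4.27e-05), against −0.69 ± 0.19 in DATG (adjusted p = 0.0126). GABRP fell by 1.40 ± 0.23 in KO (adjusted p = 1e-06) and by 0.72 ± 0.20 in DATG (adjusted p = 0.0152). TFAP2A, an AP-2 transcription factor of surface ectoderm, amnion and trophoblast, was the strongest member of the list. Its region (chr6:10426266-10426466) held 15.5 and 14.1 CPM in WT, 15.2 and 16.1 in KO and 15.7 and 18.9 in DATG on day 2, so that the lines overlapped on that day. On day 3 it held 15.4 and 16.6 CPM in WT, 11.2 and 15.1 in KO and 15.1 and 15.0 in DATG, and on day 4 the means of 2 libraries were 8.10, 7.05 and 7.67 CPM. Both KO libraries lay below both WT libraries on each of these days. It rose from day 1 to day 2 in KO (1.12 ± 0.20, adjusted p = 5.15e-05) and in DATG (1.09 ± 0.18, adjusted p = 1.43e-05), and neither line was called against WT on days 3 and 4 (−0.26 ± 0.13, adjusted p = 0.211 in KO, and −0.13 ± 0.13, adjusted p = 0.642 in DATG). The nearer of the 2 KRT7 members, 2172 bp outside that keratin gene, was also not called (adjusted p = 0.958 and 0.744), and the one 17456 bp outside was lower in both lines. EPAS1, a hypoxia-inducible factor gene, had 2 members lower in KO. The call at the one 12402 bp upstream (adjusted p = 0.0488) was lost with DESeq2, with total-count scaling and without each of 5 libraries.

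Simple-epithelium and junction genes had the highest share of members among the lists, 8 of 232 regions (3.45%). KO was lower in 5 and DATG in 4, with medians of −0.90 and −0.62, and over the 232 regions 35 were lower in KO and 11 higher. KRT19, a type I keratin of simple epithelia, had its strongest member (chr17:41536204-41536404) 7996 bp outside the gene. WT rose there from 6.66 and 9.26 CPM on day 1 to 17.0 and 16.5 on day 2, whereas KO held 9.20 and 5.31 on day 1 and 5.85 and 5.90 on day 2, and DATG reached 14.7 and 13.0. WT days 1 and 2 helped choose the region. The fall on days 3 and 4 was 1.06 ± 0.12 in KO (adjusted p = 3.38e-12) and 0.85 ± 0.11 in DATG (adjusted p = 4.07e-08). The other KRT19 member, 10541 bp outside the gene, was called in neither line (adjusted p = 0.105 and 0.786). The KRT18 member, 23546 bp from that gene and inside its partner gene KRT8 by the annotation, reached in WT 21.7 and 25.7 CPM on day 5, with KO at 6.69 and 7.94 and DATG at 15.3 and 14.7. Day 5 in WT helped choose the region. KO was lower than DATG there by 0.86 ± 0.11 (adjusted p = 1.84e-08). CDH3, which encodes P-cadherin, fell by 1.04 ± 0.16 in KO (adjusted p = 3.06e-07). The member at the start of TJP1, which encodes the tight-junction protein ZO-1, was not called (adjusted p = 0.923 in KO).

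WNT targets and feedback genes had 6 members among 330 regions, of which 3 were lower in KO and 2 in DATG, with medians of −0.56 and −0.29. Over the 330 regions 32 were lower in KO and 13 higher, near the 8.23% and 3.95% of all regions tested. AXIN2, a negative regulator of WNT signalling that WNT itself induces, had a member 6789 bp outside the gene with 11.3 and 9.55 CPM in WT on day 3, 3.60 and 2.21 in KO and 5.39 and 4.74 in DATG. It fell by 1.54 ± 0.19 in KO (adjusted p = 5.24e-10) and by 0.90 ± 0.17 in DATG (adjusted p = 0.000188). FZD7, a WNT receptor, fell by 1.32 ± 0.18 in KO (adjusted p = 4.48e-09), and SP5, a zinc-finger factor induced by WNT, by 1.05 ± 0.25 (adjusted p = 0.00117). Members at WNT3, ZNRF3 and MYC were not called in either line.

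Retinoic acid and HOX genes had 5 members among 368 regions, 4 of them lower in KO and 2 in DATG (medians −0.79 and −0.44). Over the 368 regions 32 were lower in KO and 12 higher, and in DATG 12 were lower and 4 higher. These counts are near the shares over all regions tested (8.23% and 3.95% in KO, 3.87% and 1.79% in DATG). CYP26A1, the enzyme that breaks retinoic acid down, had a member 19666 bp outside the gene that fell by 1.43 ± 0.20 in KO (adjusted p = 1.81e-08). HOXB3 was the member that did not fall: KO held 7.86 and 7.98 CPM on day 3 against 4.62 and 5.46 in WT, and the difference over days 3 and 4 was 0.47 ± 0.18 (adjusted p = 0.0713). The remaining lists held few members. They numbered 2 among 312 pluripotency regions, 1 among 507 neuroectoderm regions, 2 among 237 mesenchyme and matrix regions, 1 among 132 ribosomal protein regions, and 0 among 197 endothelial and blood and 252 endoderm regions.

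Regions near markers of other cell types differed between the lines in both directions, where 3.95% of all regions tested were higher and 8.23% lower in KO. In DATG the shares of all regions tested were 1.79% higher and 3.87% lower. In the pluripotency list 32 of 312 regions were higher in KO than in WT on days 3 and 4 and 11 lower, and in DATG 24 were higher and 4 lower. Summed over the 312 regions, the 4 WT libraries held 1699 to 1954 CPM, the 4 KO libraries 1943 to 2014 and the 4 DATG libraries 1865 to 2103. The KO and DATG sums overlapped the WT range. In the neuroectoderm list 37 of 507 regions were higher in KO and 12 lower, and in DATG 15 were higher and 6 lower. The sums were 2558 to 2875 CPM in WT, 2875 to 3051 in KO and 2811 to 3166 in DATG. Of 252 endoderm regions 4 were higher in KO and 26 lower, and of 197 endothelial and blood regions 7 were higher and 12 lower. The lower count of endoderm and both endothelial and blood counts are near the shares of all regions tested. No region of these lists was at 0. Their part in the lower level of the early-opening regions was not tested.

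**Figure D3:**
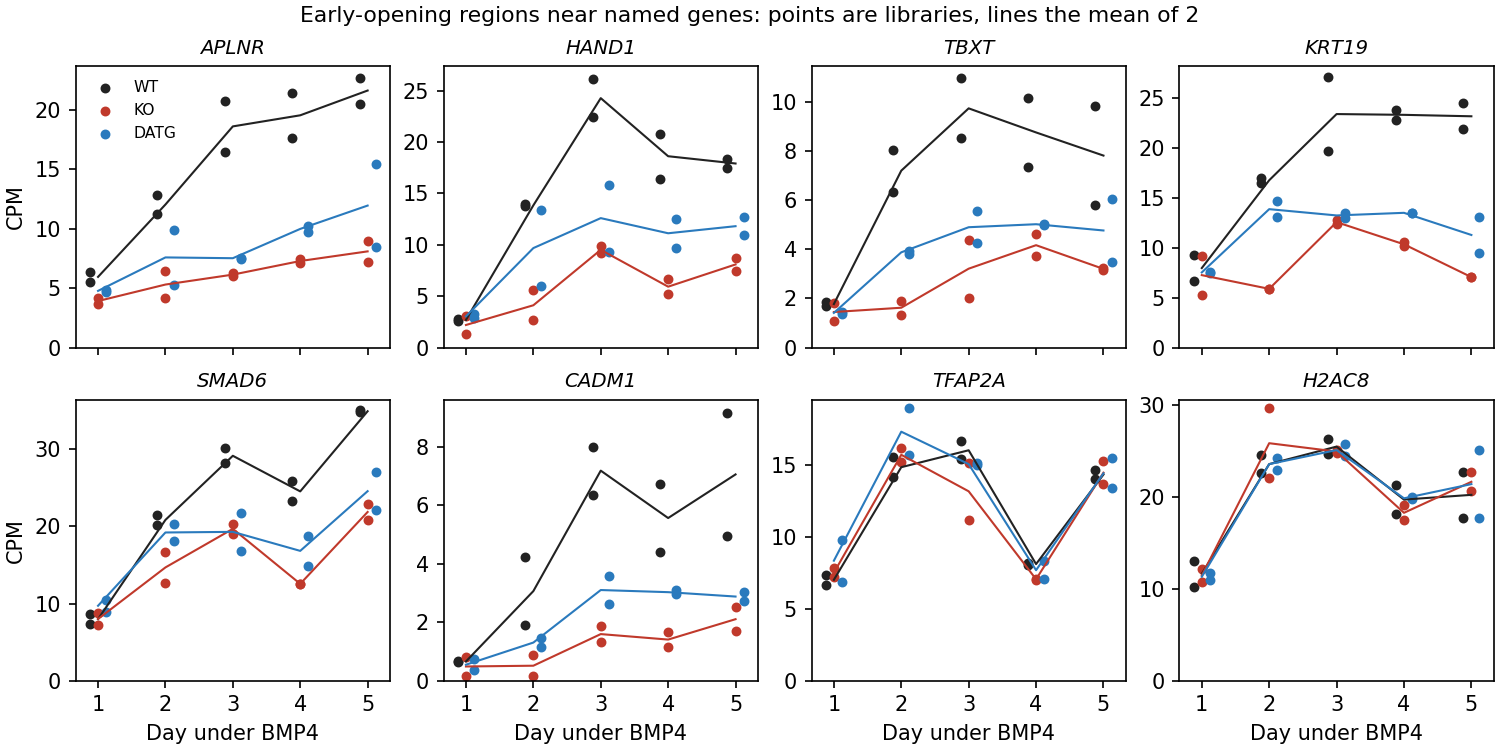
CPM (y axis) by day under BMP4 (x axis) at 8 early-opening regions, named by the nearest protein-coding gene, in WT, KO and DATG. Points are libraries and lines join the mean of 2. At APLNR, HAND1, TBXT, KRT19, SMAD6 and CADM1 the KO libraries of days 2 to 5 lie below the WT libraries of the same day. WT days 2 and 5 helped choose the regions, so this order was favoured on those days and on the days between them. At TFAP2A and H2AC8 neither mutant line was called against WT on days 3 and 4.

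Among members linked to a gene, with 1 region per gene, the largest falls in KO were ranked, and the 477 members farther than 50 kb from any gene end were left out of the ranking. At CADM1, which encodes an immunoglobulin-family adhesion protein, the member inside the gene (chr11:115480726-115480926) held 8.01 and 6.37 CPM in WT on day 3 and 6.73 and 4.41 on day 4. KO held 1.33 and 1.87, then 1.66 and 1.16, and DATG lay between, at 3.59 and 2.62, then 3.10 and 2.97. KO fell by 2.10 ± 0.24 (adjusted p = 3.21e-11) and DATG by 1.11 ± 0.20 (adjusted p = 0.000102). The next largest in KO were near SLC34A2, a phosphate transporter gene (−1.96 ± 0.23), NINL, a centrosome protein gene (−1.87 ± 0.24), MARCHF5, a mitochondrial ubiquitin ligase gene (−1.87 ± 0.20), IRS1, an insulin receptor substrate gene (−1.87 ± 0.23), and VPS8, a gene for endosome tethering (−1.83 ± 0.20), with adjusted p of 2.96e-09 or less in each. In DATG the largest falls were near ADAMTS2, a procollagen protease gene (−1.23 ± 0.26, adjusted p = 0.000607), APLNR, VPS8 (−1.16 ± 0.18, adjusted p = 4.12e-06) and GALNT18 (−1.16 ± 0.19, adjusted p = 8.11e-06). The ADAMTS2 call was lost without DATG day 4 replicate b and with DESeq2, the largest adjusted p being 0.104.

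KO fell furthest below DATG at NRP1, a co-receptor for semaphorins and VEGF (−1.38 ± 0.26, adjusted p = 0.000245), NUAK2, a kinase gene (−1.35 ± 0.21, adjusted p = 2.87e-06), SLC34A2 (−1.25 ± 0.25, adjusted p = 0.000539) and DDX27, an RNA helicase gene (−1.22 ± 0.27, adjusted p = 0.00222). At NUAK2 the 2 KO libraries of day 2 held 0.669 and 0.174 CPM, against 3.79 and 3.81 in DATG and 3.99 and 5.32 in WT. The NRP1 call was lost without DATG day 5 replicate a (adjusted p = 0.159), and the DDX27 call with DESeq2 (adjusted p = 0.0535).

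Exceptions in the other direction were few and small. C1QL2, a gene of the C1q family, had the only member linked to a protein-coding gene that was higher in KO (0.56 ± 0.17, adjusted p = 0.0187), with 5.33 and 7.81 CPM in KO on day 3 against 5.20 and 4.89 in WT. OAS1, an interferon-induced antiviral gene, had the only such member higher in DATG (0.64 ± 0.20, adjusted p = 0.0366). CAMSAP1, which encodes a microtubule minus-end protein, had the only such member higher in KO than in DATG (0.43 ± 0.12, adjusted p = 0.0222). These 3 calls were each lost under DESeq2 and under several omissions of 1 library, with adjusted p up to 0.213, 0.316 and 0.216. H2AC8, a replication-dependent histone H2A gene, had the sixth highest WT level among the linked members and was called in neither mutant line (adjusted p = 0.725 and 0.909). Reads of such a multicopy family may have been split between near-identical genes. Its region held 24.5 and 22.6 CPM in WT, 29.6 and 22.0 in KO and 22.9 and 24.2 in DATG on day 2. It rose from day 1 to day 2 in KO (1.23 ± 0.17, adjusted p = 5.02e-07) and in DATG (1.11 ± 0.17, adjusted p = 2.86e-06). Of the other members with the highest WT levels, those near CCDC102A (26.3 ± 7.53 CPM in WT, 8.51 ± 1.40 in KO and 13.0 ± 5.40 in DATG, SD over 4 libraries), ATP2B4 (24.8 ± 1.65, 17.0 ± 2.50 and 17.4 ± 2.07) and DISP3 (23.8 ± 2.06, 11.4 ± 1.84 and 15.3 ± 0.414) were lower in both lines.

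Early-opening regions lay far from gene ends, and the difference between lines went with that distance, as it also did over all regions tested. Of the 1175 members, 134 (11.4%) had their centre within 1 kb of a protein-coding gene end, against 26.0% of all regions of the table, and the median distance was 32180 bp, against 9060 bp. KO was called lower in 31 of these 134 (23.1%), in 135 of the 204 members from 1 to 10 kb (66.2%), in 280 of 360 from 10 to 50 kb (77.8%), and in 379 of 477 farther away (79.5%). Over all regions tested the shares called lower in the same bins were 2.18%, 6.44%, 11.2% and 13.8%. DATG was called lower in 11.9%, 43.1%, 52.8% and 53.5% of the members of these bins, against 1.16%, 2.99%, 5.20% and 6.40% of all regions. The median log2 fold change in KO was −0.18 within 1 kb and −1.03 beyond 50 kb, and in DATG −0.12 and −0.61. Members within 1 kb of a gene end had a day 1 median of 3.30 CPM in KO, 2.83 in DATG and 2.33 in WT. Beyond 50 kb it was 1.59, 1.58 and 1.56. WT day 1 helped choose the members, so a WT level below the mutant lines on that day was favoured by the choice. These day 1 levels move with the distance, and their part in the result was not tested.

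**Figure D4:**
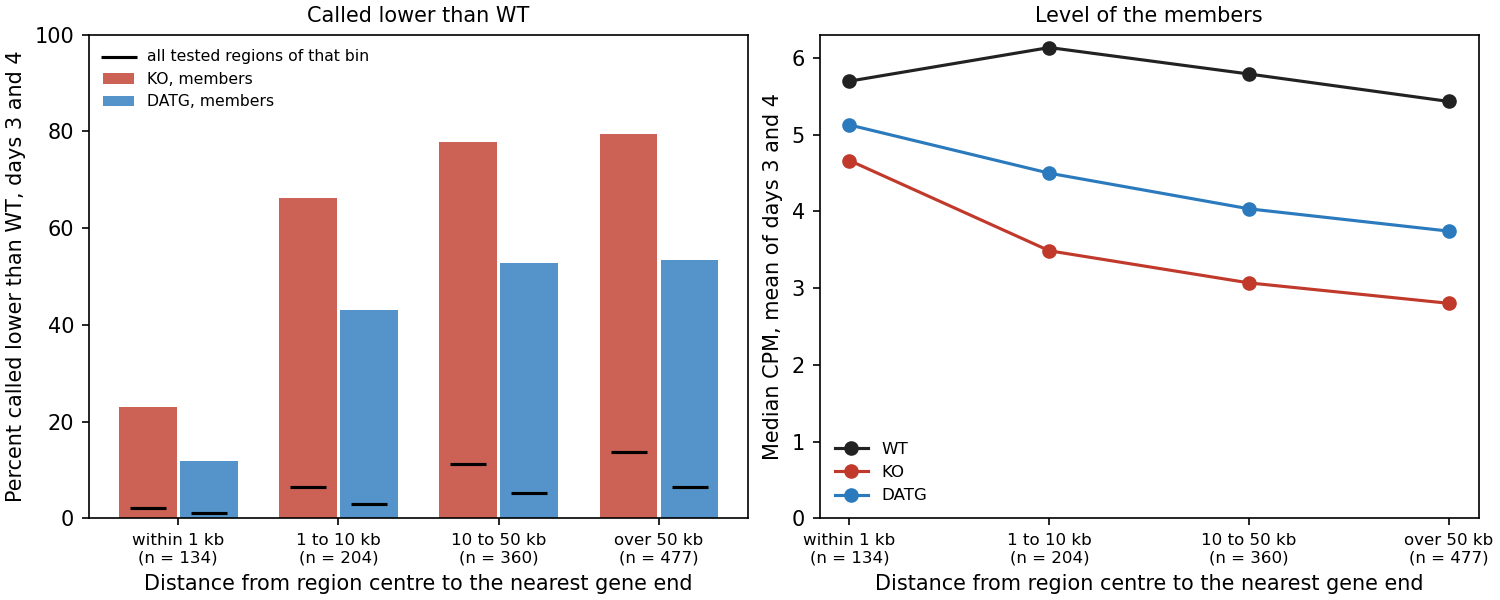
Left, percent of early-opening regions called lower than WT on days 3 and 4 (y axis, bars for KO and DATG) by distance from the region's centre to the nearest protein-coding gene end (x axis), with black marks for all tested regions of each bin. Right, median CPM of the members on days 3 and 4 in the 3 lines in the same bins. The share in KO goes from 23.1% within 1 kb to 79.5% beyond 50 kb, and the lines lie closest together within 1 kb.

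Some members stood close together. Another member lay within 50 kb of 224 of them (19.1%), and 3 runs held 4 or more. In the longest, 5 of the 6 regions between 37371687 and 37394482 on chromosome 7, inside ELMO1, a gene for a regulator of cell migration, were members. All 5 were lower in KO, with a median of 4.09 CPM in WT, 1.95 in KO and 2.56 in DATG on days 3 and 4. A run of 4 members at ABCA4, a retinal lipid transporter gene on chromosome 1, was also lower in KO at all 4 (5.55 CPM in WT, 2.49 in KO and 3.29 in DATG). The third run, at the histone genes H3C4, H2AC8 and H3C7 on chromosome 6, had 4 members among 45 regions, and none was called in KO or DATG. Its medians were 9.35, 9.06 and 8.84 CPM in WT, KO and DATG.

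The other treatments were counted over other regions, so levels were not set against those under BMP4. At day 0, 157 of the 1175 members (13.4%) overlapped a counted region, against 67.8% of all BMP4 regions, and their medians were 5.47 CPM in WT, 5.48 in KO and 5.19 in DATG. Under SMADi, 538 members (45.8%) overlapped a counted region, against 83.5% of all. In WT under SMADi, 302 of these 538 rose from day 1 to day 5 (56.1%, against 23.9% of all regions of that table) and 21 fell (3.90%, against 17.1%), with a median log2 fold change of 0.96 against 0.00. The median over the 538 went from 2.14 CPM on day 1 to 4.15 on day 4 and 4.04 on day 5 in WT. It went from 2.43 to 4.31 and 4.09 in KO and from 2.21 to 4.12 and 3.91 in DATG. The KO level of day 4 and the DATG levels of days 1 and 5 each rest on 1 library. Replicate b of the libraries labelled KO on day 1 of SMADi resembled DATG in earlier results of these data, so the KO day 1 level carries that doubt. In the WT test, which it enters only through the shared spread, 298 of the 538 rose without it.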

How the data were processed

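Accessible regions were measured by ATAC-seq in H1 cells and deposited by the authors as raw counts per region in 3 tables (BMP4, SMADi and day 0), each over its own region set. Build GRCh38 and the peak caller MACS2 are named per the submitters' processing notes, and the aligner, peak settings and treatment of duplicates were not given in the sources used here. The members and gene lists were chosen with earlier results of these data known.

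CPM used column sums. All 30 BMP4 libraries were fitted together with a term per line and day (edgeR 4.0.16 quasi-likelihood, TMM scaling, limma 3.58.1, R 4.3.3), and p-values were Benjamini-Hochberg adjusted over 142083 regions at 0.05. The 15 SMADi libraries (7086918 to 23252871 counts) were fitted separately, and the 6 day 0 libraries (4616521 to 7516259 counts) were not tested. DESeq2 1.42.0, scaling by totals, no filter, a replicate block, stricter rules and each library left out were alternatives. The scripts were tested on simulated data.

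Genes were linked by the nearer annotated end of a protein-coding gene within 50 kb (RefSeq, GRCh38.p14). The design named gene starts, but the promoter table lacks some of these, so gene ends were used. Named members, 1 region per gene, were the 6 highest in WT on days 3 and 4, the 6 largest falls and rises in KO, 4 each way in DATG and in KO against DATG, and members near listed genes. Regions overlapped where they shared at least 1 base.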

Additional observations from a re-analysis of the deposited data

How the results depend on the processing

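The direction of the median change over the members was the same in the alternatives run for each comparison, and among values of named regions 699 kept their side of the threshold, 37 lost the call and 0 reversed. KO against WT was called lower in 57.8% to 70.0% of the members with each library left out and in 57.4% with DESeq2. Apart from the share for WT under SMADi, the other shares moved by over 1.5 times in some settings, and the cause was not tested. With DESeq2 they were 14.1% for DATG against WT, 13.7% for KO against DATG, 6.13% and 17.6% for day 2 against day 1 in KO and DATG, 11.8% and 15.3% for day 5 against day 2, and 0.0851% for WT day 4 against day 3. Of all regions tested DESeq2 called 0.557%, 0.579%, 1.2% and 1.01%, 1.57% and 2.1%, and 0.0204% in the same order. These are also below the shares from edgeR. With a library left out, the shares of all regions were not counted. With libraries left out in turn, the shares ranged from 24.3% to 47.1% for DATG against WT, from 20.3% to 34.2% for KO against DATG, from 5.11% to 16.2% and from 20.4% to 42.5% for day 2 against day 1 in KO and DATG, from 12.7% to 26.8% and from 11.0% to 31.5% for day 5 against day 2, from 36.4% to 57.5% and from 47.0% to 76.7% for day 5 against day 1, from 0.170% to 4.06% for WT day 4 against day 3 (1.83% without WT day 2 replicate a), and from 48.1% to 55.4% for WT under SMADi.

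The rule itself kept 457 regions when met in both WT replicates, 327 at 3 times day 1, 419 at 5 CPM, 1479 on TMM-scaled CPM, and 937 to 1745 with a WT library left out. At 3 times day 1 the shares were 48.0% for KO against DATG, 48.0% for DATG day 5 against day 2 and 6.73% for KO day 2 against day 1. At 5 CPM they were 28.2% for KO day 2 against day 1 and 5.73% for WT day 4 against day 3. Within 10 kb of a gene end lay 28.8% of the members, against 59.4% within 50 kb. With the letters a and b as a replicate block, KO was lower than WT in 70.5% of the members (828), DATG in 46.7% (549), and KO lower than DATG in 33.1% (389), and no share moved by over 1.5 times. Deviations of libraries with the same letter correlated between −0.128 and 0.184 over 105 pairs of groups, with 11 over 0.1 and 3 under −0.1. The labels do not say that a letter marks a shared batch, so the block was not used for the reported values. The comparisons of day 5 with day 1, the test of the difference between KO and DATG from day 1 to day 2, and the omission of the SMADi library were chosen after seeing the data. With 2 libraries per line and day and a median of 26 counts per region in WT on day 2, a region that was not called is not shown to be equal.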
